A study of Mus musculus with 2 samples.

Results

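The genes examined here write, remove or read N6-methyladenosine (m6A) on RNA. They were the 10 genes Mettl3, Mettl14 and Wtap (writers), Fto and Alkbh5 (erasers), and Ythdf1, Ythdf2, Ythdf3, Ythdc1 and Ythdc2 (readers with a YTH domain), out of 21951 protein-coding genes in GENCODE release M21. Their RNAs were looked up in Prrc2a RIP-seq, in which RNA that comes down with an antibody against the protein Prrc2a is sequenced. A peak was assigned to a gene when at least 1 bp of it lay over an exon of any transcript, which gave 3 peaks out of 18129 in replicate 1 and 10 out of 18671 in replicate 2. A replicate 1 peak was called shared when it overlapped a replicate 2 peak by at least 1 bp. Alkbh5 was the only gene of the 10 with a shared peak, and its exons lay under far more peak sequence in replicate 2 than in replicate 1.

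Both samples were whole brain of wild type C57BL/6J mice, aged 4 weeks, and they form a single condition. The protocol describes male mice and 3 brains, without saying how the brains were divided between the samples, and the study calls the samples biological replicates. Goat IgG and beads were used to preclear the lysate, the RNA on the antibody beads was shortened with micrococcal nuclease, and rRNA was removed before sequencing. No sample without Prrc2a and no separate IgG sample was analysed here, so every value below is a level within the 2 pull-downs and none is a change between conditions. The lists give each peak's position and its fold enrichment, a linear ratio over a control library that is not named for this call. They hold no read total, strand, summit or FDR, so the depth behind a peak is unknown. A gene can therefore lack a peak because its RNA was hardly sequenced, and a peak list holds no expression level.

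m6A is placed on nascent mRNA mainly by a complex whose catalytic subunit is METTL3. METTL14 is its partner in RNA binding, and WTAP holds the complex in nuclear speckles. FTO and ALKBH5 are dioxygenases of the AlkB family that take the methyl group off again. Proteins with a YTH domain bind the methylated base through an aromatic cage, with YTHDC1 in the nucleus and the YTHDF proteins in the cytoplasm. Many m6A sites lie in a sequence context built around GGAC, often near stop codons and in 3′ UTRs.

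The sequences that matter most here are those of Alkbh5, the gene with the shared peaks. All are from GRCm38 (mm10), on the plus strand, which is the transcript strand, and each window holds 30 bases. The first set lay under peaks of both replicates. It holds the start codon and the 5 GGAC sites common to both, and capitals mark the start codon or GGAC.
Start codon, chr11:60538410-60538439: gttggcgggggccATGgcggccgccagcgg
5′ UTR, chr11:60538176-60538205: cctttttccctcaGGACgcggagaaggtgg
5′ UTR, chr11:60538318-60538347: ggcctggcactgaGGACcctcgcttccctt
5′ UTR, chr11:60538369-60538398: tgagagccatgccGGACcgccgcggaggac
5′ UTR, chr11:60538382-60538411: ggaccgccgcggaGGACcctagagttgagt
CDS, chr11:60538469-60538498: ccatgacgtcccgGGACaactacaaggcgg
None of these 5 sites is followed by T, so none spells GGACT.

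The second set lay under replicate 2 peaks alone. It holds the stop codon and the 6 GGACT sites of Alkbh5 that any peak covered, and it is shown because replicate 2 had peaks there and replicate 1 had none. Capitals mark the stop codon or GGACT.
Stop codon, chr11:60554400-60554429: gatgaggagacacTGAggctctgtgccctc
CDS, chr11:60538599-60538628: gaaataccaggaGGACTcggaccccgagcg
CDS, chr11:60538908-60538937: cgacgagatcccGGACTgggtgcatcagct
3′ UTR, chr11:60554421-60554450: tgtgccctcttgGGACTctggctaatcctg
3′ UTR, chr11:60555553-60555582: gcagccaggccaGGACTgagcctgctgaaa
3′ UTR, chr11:60556052-60556081: atggctaaaggtGGACTtgtgtttgcccac
3′ UTR, chr11:60558319-60558348: tctggaaccactGGACTccggcttttgagc
A match to these letters describes the sequence and does not show a methylated base.

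Across the 10 genes, 1 had a shared exonic peak, against 12.0% of all protein-coding genes. In replicate 1 alone, 2 of the 10 had an exonic peak, where 16.5% of all protein-coding genes did. In replicate 2 alone the count was 4 of 10, where 21% of all did. A peak in either replicate was found for 4 of 10, against 24.0% of all. The counts for shared peaks and for replicate 1 were near the background, while those for replicate 2 and for either replicate were above it. With 10 genes, no count over the group is a result about it.

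**Figure D1:**
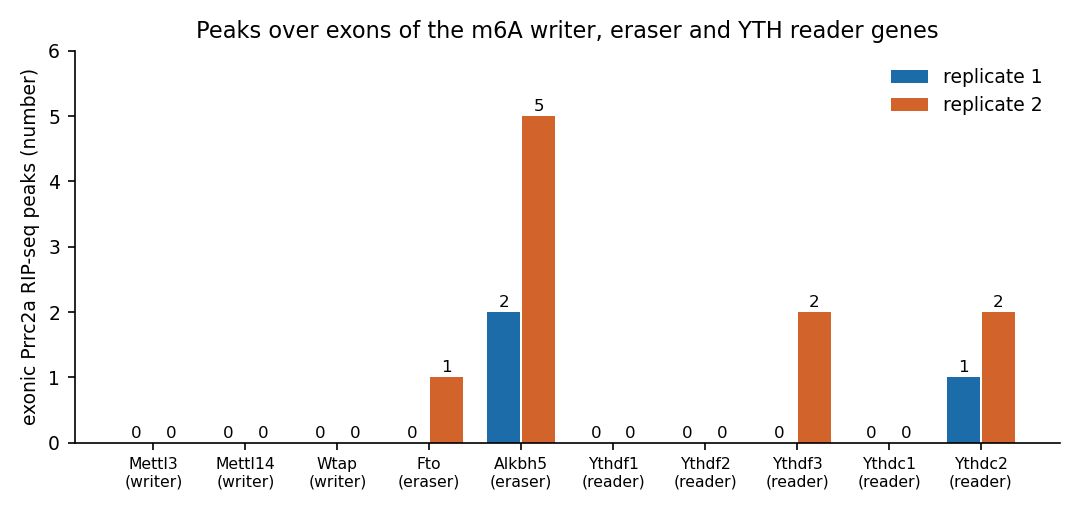
Number of exonic Prrc2a RIP-seq peaks for each of the 10 genes, with replicate 1 in blue and replicate 2 in orange, and the number above each bar. Peaks were found for 4 genes, most of them in Alkbh5 with 2 in replicate 1 and 5 in replicate 2.

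Long genes had peaks more often, and the 10 genes were long. Their annotated exons covered 3316 to 13651 bp with a median of 6118 bp, against a median of 3498 bp for all protein-coding genes and 6865 bp for those with a shared peak. Among the 10978 protein-coding genes within the same range of lengths, 18.2% had a shared exonic peak. In replicate 2 the share with a peak was 32.6%, and in either replicate it was 36.8%. The share with a shared peak rose from 1.83% of genes under 2000 bp to 54.6% of those of 14000 bp or more.

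**Figure D2:**
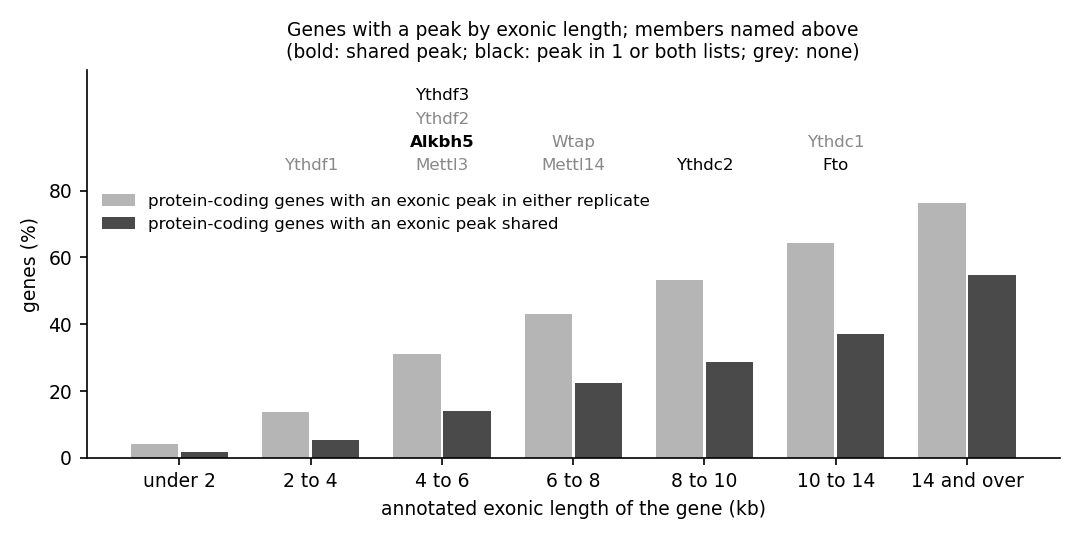
Percent of protein-coding genes with an exonic peak in either replicate (light bars) and with a shared peak (dark bars), by annotated exonic length in kb. The 10 genes are named above the bar of their length, and Alkbh5, in bold, is the one with a shared peak in a class where 13.9% of genes had 1.

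The writers carried no peak. Mettl3 (chr14:52294841-52305128, minus strand), the catalytic subunit, had 0 peaks in replicate 1 and 0 in replicate 2 over 5076 exonic bp. Mettl14 (chr3:123368297-123386108, minus strand) and Wtap (chr17:12966796-12994169, minus strand) also had 0 in each, over 7419 and 6248 exonic bp. Their introns held none either. All 3 replicate pairs of values were thus the same, at 0. Lacking an exonic peak was common, at 76.0% of all protein-coding genes. In the length class of Mettl3, 31.2% of genes had a peak in either replicate. The share was 43.1% in the class of Mettl14 and Wtap. With 3 genes, a count of 0 is not a result about the writers as a group.

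Peaks did lie close to some of these genes, and they belonged to neighbours. The nearest to Mettl14 was 3038 bp away in replicate 1 and 3156 bp away in replicate 2, over exons of Sec24d, with fold enrichments of 3.26 and 3.19. For Mettl3 the nearest peaks were 7746 and 6956 bp away, over exons of Sall2. Around Wtap the nearest were 124 kb and 197 kb away. The Mettl14 neighbour is the closest miss of the 1 bp rule, and the smallest overlap that met it was 41 exonic bp, in Alkbh5. No peak within the span of any of the 10 genes missed its exons.

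Other parts of the methylation machinery did carry peaks. A list of 10 further subunits and RNA methyltransferases (Virma, Rbm15, Rbm15b, Zc3h13, Cbll1, Mettl16, Mettl5, Trmt112, Zcchc4 and Pcif1) held 4 genes with a shared exonic peak. These 4 were Virma, Rbm15, Rbm15b and Zc3h13. Over all protein-coding genes the share was 12.0%, and in the length class of the list's median it was 22.4%. Another 5 of the 10 (Cbll1, Mettl16, Mettl5, Trmt112 and Zcchc4) had no peak in either replicate. Of the 4 with a shared peak, VIRMA is the large scaffold of the METTL3 complex, and RBM15 and RBM15B bind RNA and guide it. ZC3H13 helps keep the complex in the nucleus. The median exonic length of this list was 6528 bp, close to that of the 3 writers above, at 6248 bp.

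Rbm15 had 6 peaks in replicate 1 and 4 in replicate 2, and its most enriched shared peak, in the CDS, had fold enrichments of 4.43 and 4.02. Rbm15b had 3 and 4 peaks, over 94.1% and 78.7% of its exonic bases, and its most enriched shared peak reached 2.51 and 2.73. Virma had 3 and 4 peaks, and its most enriched shared peak read 2.92 in each replicate. Zc3h13 had 1 peak in replicate 1 and 4 in replicate 2, with 1.71 and 2.12 in the shared peak. For the single peak given of each gene, the SDs of the fold enrichment were 0.290 (Rbm15), 0.155 (Rbm15b), 0.000354 (Virma) and 0.294 (Zc3h13), with n = 2. The paired peaks were of unlike extent in Rbm15b, chr9:106881000-106884805 in replicate 1 and chr9:106882316-106882613 in replicate 2. In Rbm15 they were chr3:107329970-107333099 and chr3:107331932-107332934. For these 2 genes the SD therefore compares a broad peak with a narrower one inside it. Whether the 4 of 10 differed from the 0 of 3 writers was not tested.

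Both erasers had a peak in at least 1 replicate, and they differed in nearly every measure. Fto (chr8:91313525-91668439, plus strand) had 0 peaks in replicate 1 and 1 in replicate 2. That peak, chr8:91667015-91667226, was 212 bp wide and lay in the 3′ UTR in the last of 9 exons, starting 583 nt past the last coding base of Fto-201. Its fold enrichment was 1.44, and 1.63% of the replicate 2 peaks were less enriched. It covered 1.63% of the 13031 exonic bp and held no GGAC, while the exons of Fto held 32 elsewhere. Fto, in the length class where 64.4% of genes had a peak, was thus near the lower end of what the list holds.

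Alkbh5 (ENSMUSG00000042650.3, chr11:60536381-60558512, plus strand) had 2 peaks in replicate 1 and 5 in replicate 2. Its coding transcript Alkbh5-201 has 4 exons and 5730 nt, made up of a 5′ UTR of 445 nt, a CDS of 1185 nt and 4100 nt from the stop codon to the end. Most of the coding sequence is in the first exon of 1218 bp, exons 2 and 3 are short at 81 and 156 bp, and exon 4 of 4275 bp holds the 3′ UTR. The peaks lay over exons 1 and 4.

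In replicate 1 both peaks lay at the 5′ end. The first, chr11:60537713-60538018, was 306 bp wide with a fold enrichment of 1.52, and 3.45% of the replicate 1 peaks were less enriched. It began 265 bp before the annotated start of Alkbh5-201, so 41 bp of it were exonic, and its midpoint fell in an intron of a noncoding transcript of the same gene, whose first exon lies further upstream. The second, chr11:60538126-60538566, was 441 bp wide with a fold enrichment of 1.78, above 13.5% of the peaks. It covered 297 bp of 5′ UTR and 144 bp of CDS and so spanned the start codon. Both were weakly enriched members of their list, whose median was 2.84.

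In replicate 2 a single wide peak covered the same place. It ran over chr11:60537694-60539275, 1582 bp, had a fold enrichment of 3.31, and was wider than 97.7% of the replicate 2 peaks. It held both replicate 1 peaks whole, with overlaps of 306 and 441 bp, which made up 19.3% and 27.9% of its own length. Its fold enrichment was 2.19 and 1.86 times that of the replicate 1 peaks it held, and it was above the median of its list, 2.63. The shared call thus rests on narrow, weak peaks inside a broad one, and it is lost when the overlap has to reach 50% of both peaks or the fold enrichment has to reach 2 in both.

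The other 4 replicate 2 peaks of Alkbh5 began 14941 bp downstream in the genome, at the 3′ end. Most of that distance is intron, and on the spliced mRNA the first peak ended at nt 1218 and the next began at nt 1456. The longest, chr11:60554217-60556213, was 1997 bp wide, wider than 98.8% of the list, and had a fold enrichment of 3.26. It began 21 bp before exon 4 and took in the last 175 bp of CDS, the stop codon and the start of the 3′ UTR. The remaining 3 peaks lay further along the 3′ UTR with fold enrichments of 2.13, 3.12 and 2.38, and gaps of 457, 178 and 350 bp separated the 4 peaks. None of the 4 overlapped a replicate 1 peak.

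**Figure D3:**
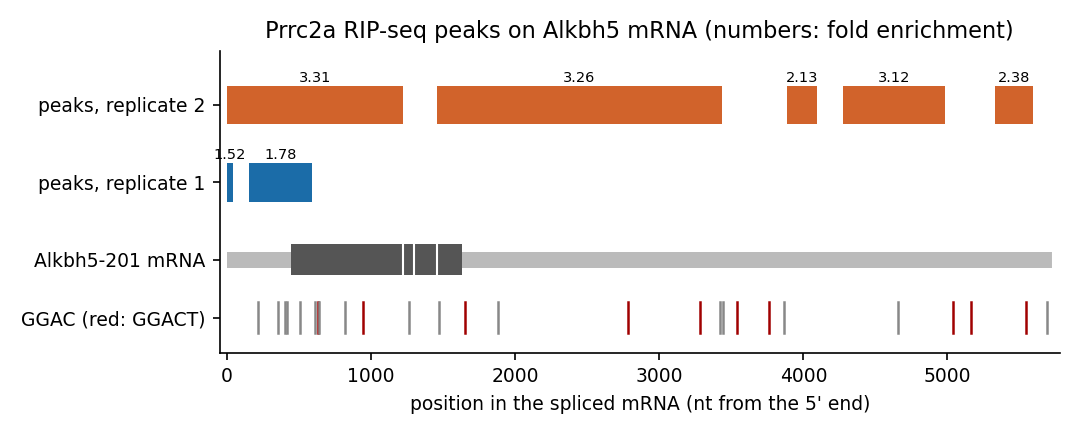
Peaks of replicate 1 (blue) and replicate 2 (orange) along the spliced Alkbh5-201 mRNA, in nt from the 5′ end, with the fold enrichment above each peak, the CDS as the thick grey bar, exon junctions as white lines and the 26 GGAC sites as ticks (GGACT in red). Replicate 1 peaks end at 589 nt, while replicate 2 peaks cover the first exon and most of the last.

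Measured in bases, replicate 1 peaks covered 482 of the 5987 exonic bp of Alkbh5 (8.05%) and replicate 2 peaks covered 4372 (73.0%). By region, the 5′ UTR was covered over 76.0% in replicate 1 and 100% in replicate 2. The CDS was covered over 12.2% and 80.0%. For the 3′ UTR, counted here with the stop codon, the values were 0% and 72.7%. The replicates were closest in the 5′ UTR and furthest apart in the 3′ UTR, and neither had a peak over exons 2 and 3.

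The replicate 2 coverage of Alkbh5 was rare in its list. Of all protein-coding genes, 132 (0.601%) were covered at least as far, Alkbh5 included, whereas genes with any replicate 2 peak had a median of 13.8%. In replicate 1, 2454 genes (11.2%) were covered at least as far as Alkbh5, and the median of genes with a peak was 14.7%. Of the other 131 genes covered at least as far as Alkbh5 in replicate 2, 128 had a shared peak. Their replicate 1 coverage had a median of 81.9% and quartiles of 58.5% and 93.3%, and 3 of the 131 were at or below the 8.05% of Alkbh5, each of these with no replicate 1 peak. Alkbh5 was therefore at the edge of that set in how far its replicates differed, which is a description of 1 gene in 2 samples. Whether depth, enrichment or the animals differed between the samples was not tested, since no read totals come with the lists.

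**Figure D4:**
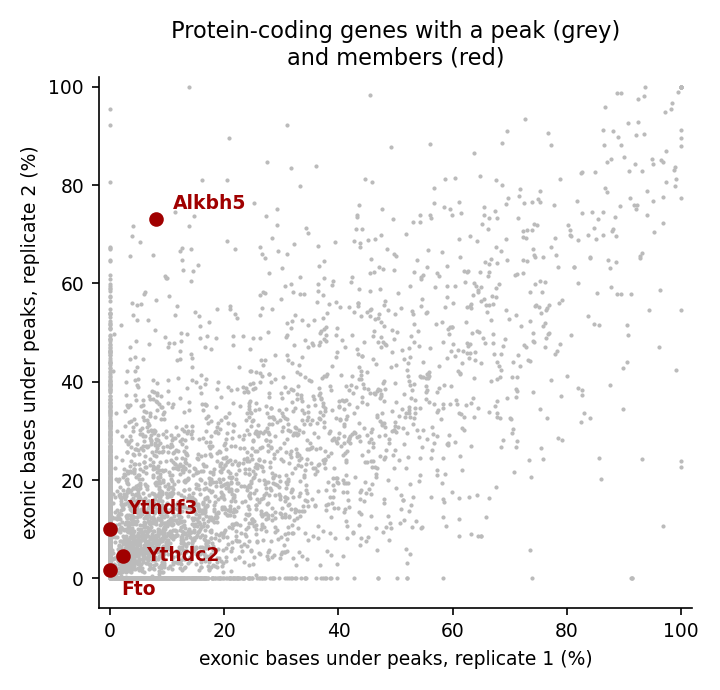
Percent of annotated exonic bases under peaks in replicate 1 (horizontal) and replicate 2 (vertical), 1 grey point for each of the 5263 protein-coding genes with a peak, and the 4 members with a peak in red. Alkbh5 sits at 8.05% and 73.0%, and the other 3 sit near the origin.

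The bases under peaks of both replicates came to 747 bp, of which 482 were exonic, 338 in the 5′ UTR and 144 in the CDS, where they cover the first 48 codons. They held 5 GGAC sites, 4 in the 5′ UTR and 1 in the CDS, and these are the sites printed first above. Over all exons of Alkbh5 there were 26 GGAC sites, of which 18 lay under a peak of either replicate. The density was uneven along the mRNA. It was 10.4 per kb in the exonic bases common to both replicates, 11.3 in the replicate 1 peak over the start codon and 8.21 in the replicate 2 peak around it. The 4 replicate 2 peaks at the 3′ end held 0 to 3.80 per kb, so that all bases under peaks came to 4.12 per kb and those outside to 4.95. Across every protein-coding gene in the annotation, exons held 3.72 per kb. The exonic bases under all peaks in protein-coding exons held 4.59 per kb in replicate 1 and 4.70 in replicate 2. GC content was 70.7% in the exonic bases of the replicate 1 peak over the start codon and 46.6% in those of the replicate 2 peak over the stop codon.

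The other AlkB homologs had no shared peak. None of 7 genes (Alkbh1, Alkbh2, Alkbh3, Alkbh4, Alkbh6, Alkbh7 and Alkbh8) had a shared exonic peak, and 2 had a peak in replicate 2, namely Alkbh4 with 1 and Alkbh8 with 2, which are named here after their values were seen. Their median exonic length was 3123 bp, in the class where 5.40% of genes had a shared peak and 13.7% a peak in either replicate, and 2 of 7 is 28.6%.

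Of the YTH readers, 3 had no peak and 2 had peaks that were not shared. Over all protein-coding genes, 12.0% had a shared exonic peak and 24.0% a peak in either replicate. In the length class of Ythdf2 and Ythdf3, 31.2% of genes had a peak in either replicate, and in that of Ythdc2 53.1% did. With 5 genes, these counts are not a result about the readers as a group. Ythdf1 (chr2:180904377-180920949, minus strand), Ythdf2 (chr4:132184912-132212303, minus strand) and Ythdc1 (chr5:86804221-86836659, plus strand) had 0 in replicate 1 and 0 in replicate 2. YTHDF2 is the reader best known for sending methylated mRNA to decay, and YTHDC1 is the nuclear reader linked to splicing and export. Ythdc1 is the longest of the 10 genes by exons, at 13651 bp, in the class where 64.4% of genes had a peak, and Ythdf1 is the shortest at 3316 bp, where 13.7% did. The nearest peaks were 10.5 kb from Ythdf1 in each replicate and 12.6 and 12.9 kb from Ythdf2, while around Ythdc1 none lay within 1884 kb.

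Ythdf3 (chr3:16183212-16217037, plus strand), a cytoplasmic paralog of Ythdf1 and Ythdf2, had 0 peaks in replicate 1 and 2 in replicate 2. The first, chr3:16214143-16214373, had a fold enrichment of 1.85 and began 168 nt past the last coding base of Ythdf3-201. The second, chr3:16216610-16216916, had a fold enrichment of 3.19, above 67.1% of the list, and ended 121 nt before the end of the transcript. They were 2236 bp apart in the last exon, both in the 3′ UTR, and covered 538 of 5363 exonic bp (10.0%). The 2 peaks stood at the opposite ends of this 3′ UTR and neither held a GGAC, of which the exons of Ythdf3 had 15.

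Ythdc2 (chr18:44827746-44889724, plus strand), which has a helicase domain beside its YTH domain and is known for its role in meiosis, had 1 peak in replicate 1 and 2 in replicate 2. The replicate 1 peak, chr18:44860449-44860739, had a fold enrichment of 2.08 and covered 201 bp of CDS in exon 20 of 30. In replicate 2 the peaks were chr18:44888883-44889090 and chr18:44889243-44889442, with fold enrichments of 2.28 and 4.16, both in the 3′ UTR and 152 bp apart. The nearest of them was 28143 bp from the replicate 1 peak in the genome, introns included. Both replicates thus had Ythdc2 in their list through different parts of the gene, as did 1.64% of protein-coding genes. The peak at 4.16 was the most enriched of all 13 and, at 200 bp, as narrow as any in its list. Only the replicate 1 peak held GGAC, with 2 sites.

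A list of 11 other proteins reported to bind m6A RNA (Igf2bp1, Igf2bp2, Igf2bp3, Hnrnpa2b1, Hnrnpc, Rbmx, Fmr1, Elavl1, Prrc2a, Prrc2b and Prrc2c) held 2 genes with a shared exonic peak, Elavl1 and Prrc2c. Elavl1, which encodes the AU-rich element binding protein HuR, had 4 peaks in replicate 1 and 1 in replicate 2, with 1.63 and 2.46 in the shared peak in its 3′ UTR (SD 0.589, n = 2). The RNA of Prrc2a itself had 0 peaks in replicate 1 and 3 in replicate 2, over 31.0% of its exons. That of Prrc2b had 0 and 11, over 49.3% of its exons in replicate 2. Over the 3 further lists together, 6 of 28 genes (21.4%) had a shared peak and 12 (42.9%) a peak in either replicate. Their median exonic length was 6579 bp, and in the class of that length 22.4% and 43.1% of genes did.

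Counted by peaks instead of genes, 2 of the 3 replicate 1 peaks were shared, against 60.0% of all exonic replicate 1 peaks. Of the 10 replicate 2 peaks 1 was shared, against 48.3% of all exonic replicate 2 peaks. These peaks come from 4 genes, 7 of the 13 from Alkbh5, and are not independent. No other gene had an exon under any of the 13.

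Fold enrichments were low in replicate 1, where the 3 peaks lay between 1.52 and 2.08 and 0 of 3 were above the median of all peaks. In replicate 2 the 10 peaks lay between 1.44 and 4.16 with a median of 2.75, and 5 of 10 were above the list's median of 2.63. Fto and Ythdf3 had no replicate 1 peak to place, and 2 of the 3 replicate 1 peaks were from Alkbh5.

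**Figure D5:**
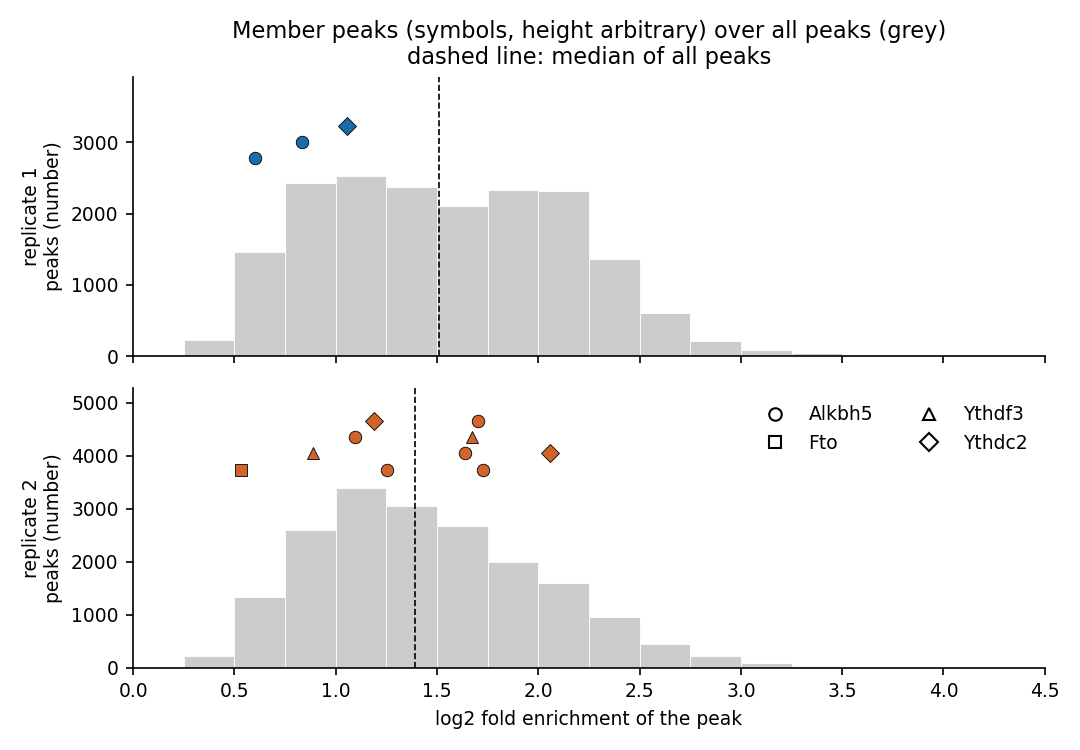
Log2 fold enrichment of all peaks of replicate 1 (top) and replicate 2 (bottom) as grey histograms in numbers of peaks, with the member peaks as symbols at arbitrary height and the median of all peaks as a dashed line. All 3 replicate 1 symbols lie left of the line, and 5 of the 10 replicate 2 symbols lie right of it.

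By position, 9 of the 10 replicate 2 peaks had their midpoint in a 3′ UTR and 1 in a CDS, whereas 31.6% of all replicate 2 peaks in protein-coding exons were in a 3′ UTR and 52.1% in a CDS. In replicate 1 the midpoints were in an intron, a 5′ UTR and a CDS, 1 each, and 0 of 3 in a 3′ UTR against 29.6% of all. GGAC was present in the exonic bases of 2 of 3 replicate 1 peaks and 4 of 10 replicate 2 peaks, all 4 of the latter in Alkbh5. Over all peaks in protein-coding exons the shares were 72.4% and 70.3%. The median widths of the member peaks were 306 and 247 bp in replicates 1 and 2, against 380 and 386 bp for all peaks. The widest member peaks, both in Alkbh5, were 441 and 1997 bp, so not all were narrow. The shares with GGAC were not adjusted for width. The 6 genes without a peak held 143 GGAC sites in their exons, 3.55 per kb, and the 4 with a peak held 90, 2.71 per kb, so the letters alone did not separate them.

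The labelled tissue could be checked only through the presence of peaks, and with 24.0% of all protein-coding genes having a peak in either replicate, such short lists say little about it. Of 4 neuronal markers, 0 had a shared exonic peak and 1 (Map2) had peaks in replicate 2, while Snap25, Syt1 and Tubb3 had none. Of 3 astrocyte markers, 1 (Slc1a2) had a shared peak, and Gfap and Aqp4 had none. Of 5 liver, heart and skeletal muscle markers, 0 had a peak, where their median exonic length of 2342 bp falls in the class with 13.7%. Of 10 markers of other cells a brain sample can hold, 4 had a peak in either replicate and 1 of these, microglial Csf1r, a shared one. Their median exonic length of 1363 bp falls in the class with 4.15%, though Csf1r and Cx3cr1 were longer, at 5774 and 4505 bp. Of 3 pituitary markers, Gh and Prl had a peak in replicate 1 only, over 91.2% and 16.6% of their exons, and Pomc had none. Microglial Cx3cr1 had 0 peaks in replicate 1 and 3 in replicate 2, over 56.4% of its exons. The part of such cells in the values above was not tested.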

How the data were processed

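Prrc2a RIP-seq peaks of whole mouse brain were analysed in 2 replicates of 1 condition. Per the submitters' processing notes, TopHat2 2.0.9 and MACS2 2.0.10 were used with mm10, whereas the study's methods name other versions of both. According to those methods, reads that mapped to a single place with a score of 20 or more were kept and peaks were called at an FDR under 0.05, replicate by replicate in the deposited lists. The deposited value is the fold enrichment of a peak, a linear ratio, with the control not given in the sources used here. Depth is unknown, so no interval on counts could be given.

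Exons came from GENCODE M21 and sequence from GRCm38. Peaks were matched to exons and to each other by at least 1 bp. The region of a peak was read at its midpoint, where CDS took precedence over 3′ UTR, then 5′ UTR, noncoding RNA, other exons and introns. GGAC was counted on the transcript strand. Functions were tested on simulated data. Python 3.11.15, numpy 2.4.6, pysam 0.24.0, samtools 1.23.1 and matplotlib 3.10.9 were used. With 1 condition no test was run. The members and lists were chosen with earlier results of these data known. All 10 members are named, and other listed genes where they had a shared peak, with fold enrichments for at most the 5 most enriched. Some listed genes without a shared peak are also named, with their peak counts. Alternatives changed the overlap, fold enrichment, annotation, coordinates, motif and replicates. A further list of brain markers is not reported here.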

Additional observations from a re-analysis of the deposited data

How the results depend on the processing

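Requiring an overlap of 50% of both peaks left 0 members and 0 member peaks shared, with 9.50% of protein-coding genes and 5 of the 28 other genes. Keeping only peaks enriched 2-fold or more also left 0 and 0, with 8.43% and 3. At 4-fold or more there were 0 and 0, with 1.59% and 1. Counted in replicate 2 coordinates, 1 member peak was shared, 1 was in the CDS and 100% held GGAC, against 50.0% in replicate 1 coordinates and 0% for GGACT. Each replicate alone gave 2 to 4 members, 3 to 10 peaks, 16.5% to 21% of genes, 6 to 12 other genes, 1 peak in the CDS and 0 to 9 in the 3′ UTR. Basic transcripts, whole gene spans and the gene or region with the most overlapping bases left the member counts as they were. In every setting that needs both replicates, 9 members had 0 shared peaks. No paired analysis was possible because there was 1 condition. With no depth in the lists, 0 peaks sets no limit on binding, and 2 samples do not measure the spread between animals well.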
